A study of Mus musculus with 30 samples.

Results

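The genes described here copy the genome in S phase and make the nucleotides for it. They are 47 genes taken by name: the replicative helicase and the proteins that load it, the primase, the replicative polymerases with their clamp, clamp loader, single-strand binding protein, flap nuclease and ligase, the enzymes of deoxynucleotide synthesis, the proteins that copy chromatin behind the fork, and the cyclins and E2F factor that open S phase. All 47 had a row among the 53278 genes of the SVZ count table and the 50508 genes of the striatum table. RNA was sequenced from the subventricular zone (SVZ) and the striatum of the same 15 C57Bl/6 mice, with 1 library per mouse and tissue, in a study of how neural precursor cells of the SVZ affect the striatum. NestinTK+ mice carry a thymidine kinase transgene driven by the second intron of the rat Nestin promoter, and NestinTK- mice are their wild-type littermates. Adult female and male mice of 6 to 8 weeks, by the study's methods, received ganciclovir (GCV) or PBS from a subcutaneous minipump for 4 weeks. The NestinTK+GCV+ group (A1 to A5) is the ablated group, and the controls are 3 NestinTK-GCV+ mice (G1 to G3), 3 NestinTK-PBS+ mice (P1 to P3) and 4 NestinTK+PBS+ mice (T1 to T4). A letter and number name the same mouse in both tissues, as read from a number in the sample titles that recurs in both. The transgene acts in any cell that uses this Nestin element, and each mouse gave 1 library per tissue, so that the error terms below are the spread between mice.

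In S phase, the MCM helicase is loaded at origins, opens the DNA with Cdc45 and the GINS complex, and is followed by primase, the polymerases delta and epsilon, and ligase I on the lagging strand. Thymidine kinase of the transgene phosphorylates ganciclovir, and the product stops DNA synthesis when a polymerase inserts it, so that the treatment acts on cells that copy DNA. In the adult SVZ, transit-amplifying cells and neuroblasts divide, whereas striatal neurons do not; resting cells still need the clamp Pcna, its loader RFC, the single-strand binding protein RPA, the polymerases delta and epsilon, Fen1 and Lig1 to fill gaps in repair, and they keep nucleotide pools with Rrm2b and the mitochondrial kinase Tk2 in place of Rrm2 and Tk1.

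Levels are given as CPM, counts per 1000000 counts of the tested genes after TMM scaling. SVZ libraries held 8360810 to 21056005 counts and striatum libraries 2626962 to 4693441, and the ablated SVZ libraries (8360810 to 9595103) lay at the shallow end. SVZ counts were made with a full-length kit from amplified cDNA and scattered widely between mice (common biological coefficient of variation 0.939, against 0.251 for the 3′ counts of the striatum). The labels call the SVZ samples neural precursor cells, but all 8 spiny neuron markers had counts in every SVZ library, with a summed level of 3210 to 10574 CPM, so that the libraries are dissected tissue. Ttr, the main choroid plexus transcript, took 4.49%, 9.88% and 9.83% of the counts of P1, P2 and T1 in the SVZ. Mitochondrial genes took 13.1% to 17.0% of the counts in the ablated SVZ libraries and 6.69% to 15.2% in the controls.

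A gene was tested in a tissue if 3 or more of its libraries had over 1 CPM, and was called by the study's thresholds, a change of 2-fold or more with a p-value before adjustment no higher than 0.01 in edgeR's quasi-likelihood test. In the SVZ 46 of the 47 genes were tested (all but Fen1) and in the striatum 40 (all but Mcm10, Gins1, Orc1, Pole, Tk1, Chaf1b and Uhrf1).

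In the SVZ, the ablated mice had less RNA of 1 replication gene than the pooled controls by this rule, Lig1, which codes for the ligase that joins Okazaki fragments. Of all 16375 genes tested, 1.22% were called lower and 0.373% higher, so that 1 of 46 is near that background. By edgeR no member was called higher, and DESeq2 and limma-voom also called 0 higher. At a nominal p-value under 0.05 alone, 6 members lay lower (Lig1, Uhrf1, Mcm5, Gins2, Cdc6 and Tyms), against 6.09% of all genes, and 2 lay higher (Chaf1b and Cdc45), against 3.73%. No member had an adjusted p under 0.05 by edgeR, where 0.00611% of all genes did. DESeq2 gave 2 (Lig1 and Uhrf1), beside 168 of all genes (1.03%), and limma-voom 0, beside 1 of all genes. Over the 46 tested members, 31 had a fold change below 0 and the median log2 fold change was −0.48, beside 51.9% of all genes below 0 and a median of −0.03. No member had ablated and control mice without overlap, in either tissue. The share of all genes without overlap is not given here.

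**Figure D1:**
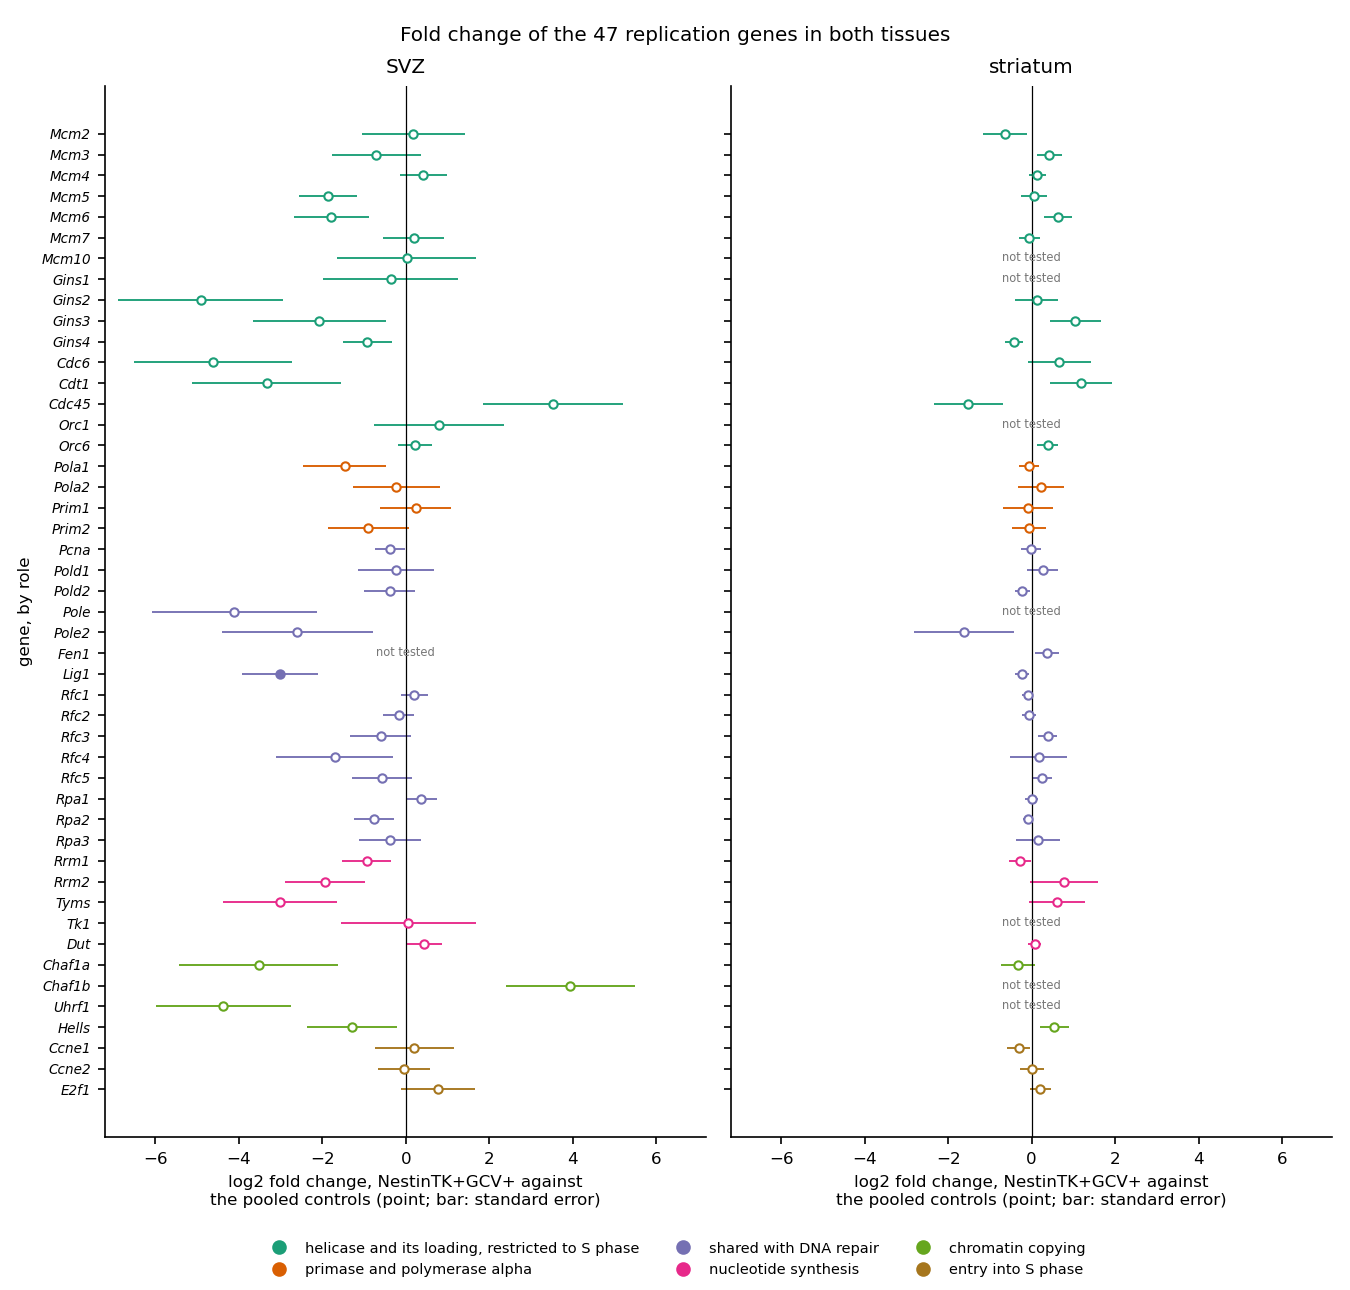
Log2 fold change of each of the 47 genes (rows, coloured by role) between NestinTK+GCV+ (n = 5) and the pooled controls (n = 10), with the standard error as a bar, in the SVZ (left) and the striatum (right); the filled point is the called gene. The SVZ values run from −4.92 to 3.94 with long bars, and the striatal values from −1.62 to 1.19.

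The replicative ligase Lig1 is given in full because it was the only member called by edgeR, at a share near the background. SVZ Lig1 stood at 0.36, 0.697, 0.123, 5.02 and 0.372 CPM in A1 to A5. It stood at 27.2, 3.86 and 9.93 CPM in the NestinTK-GCV+ mice, at 11.2, 2.84 and 6.72 CPM in the NestinTK-PBS+ mice, and at 12.1, 19.6, 10.5 and 3.63 CPM in the NestinTK+PBS+ mice. All ablated mice but A4 lay below every control, and A4 lay above the 3 lowest controls, so that the groups overlapped. The means were 1.32 ± 2.08 CPM (SD, n = 5) and 10.8 ± 7.67 CPM (SD, n = 10), and the log2 fold change was −3.01 ± 0.91 (adjusted p = 0.35, edgeR; here and below ± after a log2 fold change is the standard error). Without A4 it was −4.76. The call was lost without A1 (−2.77) and in fits whose controls were NestinTK-GCV+ alone (−3.36) or NestinTK+PBS+ alone (−3.11), each on fewer mice. Against NestinTK+PBS+ alone the log2 fold change was −3.10 ± 1.04 and against NestinTK-GCV+ alone −3.36 ± 1.08, both called in the fit of all 4 groups, which pools their spread, whereas neither control contrast of genotype or of ganciclovir called Lig1. Exons of Lig1 (chr7:13277283-13311433, plus strand, GRCm38) share bases with Zswim9 on the opposite strand, and Zswim9 had a log2 fold change of 0.23 ± 0.92 in the same libraries.

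In these bulk libraries, fewer dividing cells and less RNA of a gene in each cell cannot be told apart. Beside the call of Lig1, all 18 genes of a mitosis list had a fold change below 0 (median −1.99), and Top2a, Cenpf and Ube2c were called lower. The mitosis genes summed to 9.42 to 74.9 CPM in the ablated mice and 72.7 to 194 CPM in the controls. Top2a, the topoisomerase that untangles replicated chromosomes, fell from 29.1 to 1.31 CPM (log2 fold change −4.46 ± 0.90; adjusted p = 0.24, edgeR). Its groups did not overlap, but the gap was narrow, with A1 at 3.60 CPM and T4 at 3.91 CPM. Mki67 had a log2 fold change of −0.82 ± 0.71. Of 8 neuroblast genes 7 were below 0, and Dcx, Dlx1 and Sp8 were called lower; the list summed to 101 to 132 CPM in the ablated mice and 121 to 368 CPM in the controls. Choroid plexus and ependymal markers moved in the same direction. All 7 choroid plexus genes were below 0 and Ttr, Folr1, Otx2 and Aqp1 were called lower (summed level 18.3 to 244 CPM against 15.8 to 102960 CPM, with medians of 185 and 216 CPM). Ccdc153 and Rarres2 of 5 ependymal genes were also called lower (20.4 to 196 CPM against 72.3 to 258 CPM). P1, P2 and T1 held 46618 to 102960 CPM of the choroid plexus genes and the other 7 controls 15.8 to 788 CPM, and Aqp1 was at 0 in 4 of the 5 ablated and 5 of the 10 control libraries. Without the 3 mice whose Ttr exceeded 1%, 2 of the 40 members then tested were called lower (Lig1 and Uhrf1), beside 0.701% of all genes. All 8 oligodendrocyte genes were below 0 as well (median −0.33), with 0 called. So were 3 of 5 oligodendrocyte precursor genes (median −0.43) and 3 of 6 microglia genes (median 0.09). Other lists lay higher, with 1 of 8 spiny neuron genes (median 0.22) and 1 of 5 endothelial genes (median 0.53) below 0. The part of these cell types in the values of the replication genes was not tested.

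The helicase genes included both high and low values in the ablated mice. MCM proteins form the ring that unwinds DNA, Cdc6 and Cdt1 load it with the origin complex, and the GINS proteins with Cdc45 switch it on. Of 16 genes 9 were below 0 (median −0.53), none was called, and Mcm5, Gins2 and Cdc6 at the lower side and Cdc45 at the higher side had a nominal p-value under 0.05. Mcm5 stood at 0.60, 0.279, 10.7, 5.45 and 4.59 CPM in A1 to A5. It stood at 11.8, 16.5 and 26.5 CPM in G1 to G3, at 18.2, 11.3 and 18.0 CPM in P1 to P3, and at 11.0, 14.6, 26.2 and 3.98 CPM in T1 to T4. All ablated mice lay below 9 of the 10 controls, and 3 of them lay above T4 (log2 fold change −1.87 ± 0.69; adjusted p = 0.38, edgeR). Without A3 or without T4, Mcm5 passed the call rule (−2.52 and −1.98). Its partner Mcm6 had a log2 fold change of −1.79 ± 0.90, with 0 to 6.14 CPM in the ablated mice and 0.661 to 19.9 CPM in the controls.

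Gins2 and Cdc6 were close to the floor of detection. Gins2 had 1 count in the 5 ablated libraries together and 137 in the 10 controls, a ratio of 0.0244 after scaling, with an exact 95% counting interval of 0.000613 to 0.138 that covers counting error only. Its level was 2.44, 0 and 0 CPM in G1 to G3, 3.59, 0.193 and 0 CPM in P1 to P3, and 0.152, 3.12, 0.461 and 0 CPM in T1 to T4, so that 4 control mice also had no count. Cdc6 had 1 count in the ablated mice and 119 in the controls, a ratio of 0.0281 (0.000706 to 0.160), and 4 controls without a count; G3 alone reached 4.32 CPM. The fitted log2 fold changes of these genes (−4.92 ± 1.97 and −4.62 ± 1.90) depend on the prior count. Cdc45 lay on the other side, at 13.9 CPM in A5 and 2.94 CPM in A3 with at most 0.240 CPM in the other ablated mice, and at 0 in 7 of 10 controls (log2 fold change 3.53 ± 1.68). In contrast, Mcm2, Mcm4, Mcm7, Orc1 and Orc6 had log2 fold changes between 0.17 and 0.80, none with a call. The direction of Mcm2 turned without A5 (−0.63) or A3 (−0.18), that of Mcm7 without A2 (−0.29) and that of Orc1 and Orc6 with NestinTK-GCV+ as sole controls (−0.54 and −0.07), and Mcm4 was at 0.01 without A3. Orc6 kept 13.4 to 17.3 CPM in the ablated mice against 4.96 to 23.5 CPM in the controls.

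**Figure D2:**
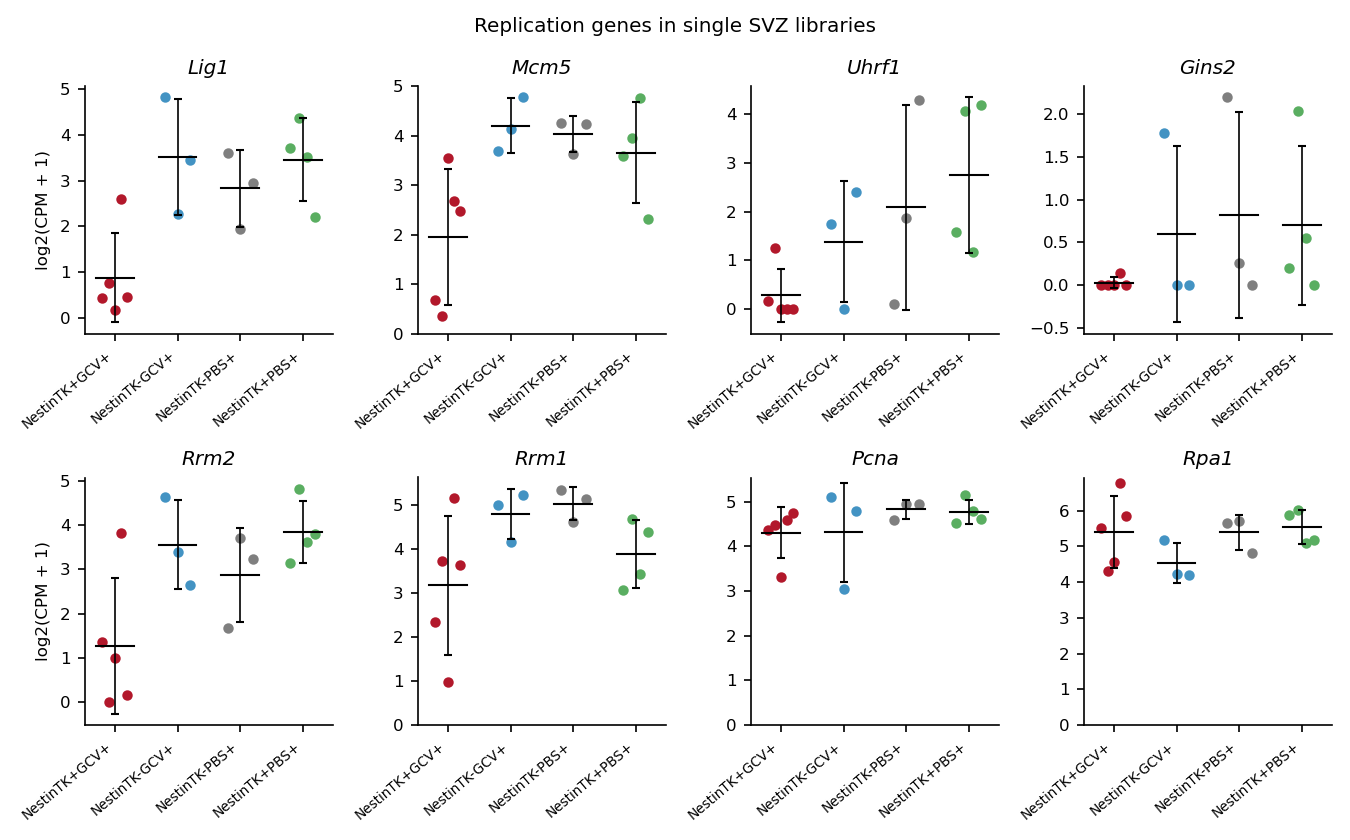
Level of 8 replication genes in each SVZ library as log2(CPM + 1), by group (points, 1 mouse each; line and bar, mean ± SD; n = 5, 3, 3 and 4). Lig1, Mcm5, Uhrf1, Gins2 and Rrm2 show low points in the ablated group beside 1 or more mice within the control range, whereas Pcna and Rpa1 overlap over most of their range, with A4 above every control in Rpa1.

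E2F factors switch on S phase genes through a short promoter element, and its letters mark part of this group. RefSeq's promoter windows run from 250 bases before to 50 bases after each start site (GRCm38.p6). Only the 250 bases before the start site were searched, on both strands, for TTTCCCGC, TTTGGCGC, TTTCGCGC and TTTGCCGC. A window was at hand for 39 of the 47 genes, and 10 of these (25.6%) held a match, beside 583 of 27025 genes (2.16%). By role, matches lay in 6 of 12 helicase genes (Mcm5, Mcm6, Mcm7, Gins3, Cdc6 and Orc1), 2 of 4 chromatin genes (Uhrf1 and Hells), 1 of 3 primase genes (Pola1), 1 of 13 repair-shared genes (Rfc3), and 0 of 5 nucleotide genes. The further replication and S phase genes had 8 of 34 (23.5%), the mitosis list 1 of 16 (Cdk1) and the list for resting cells 0 of 12. The 250 bases searched for Lig1 held none of these letters, which says nothing beyond those bases. The 4 stretches printed here, 200 bases that end just before the start site, are those of Mcm5, Cdc6 and Uhrf1, which had a match and a nominal p-value under 0.05, and of Mcm6, which had 3 matches; they were chosen after the values were seen, and capitals mark the matches.
Mcm5, chr8:75109309-75109508, plus strand: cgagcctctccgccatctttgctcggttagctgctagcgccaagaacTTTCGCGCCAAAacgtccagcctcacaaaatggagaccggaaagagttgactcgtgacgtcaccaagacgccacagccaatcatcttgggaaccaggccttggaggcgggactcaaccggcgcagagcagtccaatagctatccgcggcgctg
Mcm6, chr1:128359706-128359905, minus strand: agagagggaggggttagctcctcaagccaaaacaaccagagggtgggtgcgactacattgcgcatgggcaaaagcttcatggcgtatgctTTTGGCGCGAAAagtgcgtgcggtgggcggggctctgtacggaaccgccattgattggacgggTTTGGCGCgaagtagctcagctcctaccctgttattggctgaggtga
Cdc6, chr11:98907951-98908150, plus strand: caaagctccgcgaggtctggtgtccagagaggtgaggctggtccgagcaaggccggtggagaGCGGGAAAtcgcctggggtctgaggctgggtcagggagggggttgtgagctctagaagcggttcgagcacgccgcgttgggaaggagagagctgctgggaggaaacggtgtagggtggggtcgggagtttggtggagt
Uhrf1, chr17:56304113-56304312, plus strand: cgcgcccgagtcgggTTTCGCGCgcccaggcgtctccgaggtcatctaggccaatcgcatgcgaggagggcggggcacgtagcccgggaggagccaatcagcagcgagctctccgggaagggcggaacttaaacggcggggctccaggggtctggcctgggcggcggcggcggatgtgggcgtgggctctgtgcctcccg

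The longer capital run of Mcm5 and the first of Mcm6 are each a pair of overlapping matches on opposite strands, and the single match of Cdc6 reads on the minus strand of the gene. In the SVZ, 8 of the 10 genes with a match had a fold change below 0 (median −1.63), and 16 of 28 tested genes with a window and no match did (median −0.31). In the striatum, 2 of 8 tested genes with a match were below 0 (median 0.46) and 13 of 26 without (median 0.03). These counts are a description and were not tested.

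Primase and polymerase alpha start each new strand. The 4 genes were all tested in the SVZ and 3 were below 0 (median −0.56); none was called. Pola1, the catalytic subunit of polymerase alpha, had 0 to 3.85 CPM in the ablated mice and 0.909 to 19.8 CPM in the controls (log2 fold change −1.46 ± 0.99), and the primase subunit Prim1 had 0.24 ± 0.86.

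The genes shared with DNA repair varied less between mice than the helicase genes. Of 14 tested, 12 were below 0 with a median of −0.48, and only Lig1 was called. The clamp Pcna stood at 19.7, 21.2, 8.95, 23.1 and 25.9 CPM in the ablated mice. Its controls were at 33.4, 7.27 and 26.6 CPM (G1 to G3), 23.0, 29.8 and 30.0 CPM (P1 to P3), and 22.0, 34.5, 26.5 and 23.3 CPM (T1 to T4). The groups overlapped over most of their range (log2 fold change −0.38 ± 0.35; adjusted p = 0.80, edgeR). Rpa1, the large subunit of the single-strand binding protein, was at 44.9, 19.0, 22.6, 109.7 and 56.5 CPM in A1 to A5, with A4 above every control, and at 17.4 to 64.0 CPM in the controls with a median of 35.5 (log2 fold change 0.38 ± 0.38). Rpa2 and Rpa3, the smaller subunits, had log2 fold changes of −0.76 ± 0.49 and −0.39 ± 0.74. The clamp loader subunits Rfc1 (0.20 ± 0.33) and Rfc2 (−0.17 ± 0.38) lay nearest to 0, while Rfc4 (−1.70 ± 1.40) had no count in A2, A3 and A5. Pold1 and Pold2 of polymerase delta had −0.24 ± 0.91 and −0.38 ± 0.61. Pole, the catalytic subunit of polymerase epsilon, was the least even: it reached 34.2 CPM in P3, at most 4.61 CPM in any other mouse, and was at 0 in 3 ablated and 3 control mice.

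Ribonucleotide reductase and thymidine kinase each exist in an S phase form and a form of resting cells; differences between the forms were not tested. Rrm2, the S phase subunit of ribonucleotide reductase, was at 1.56, 0, 0.981, 13.0 and 0.124 CPM in A1 to A5. It was at 23.9, 9.47 and 5.31 CPM in G1 to G3, 2.22, 12.1 and 8.48 CPM in P1 to P3, and 7.90, 27.3, 11.4 and 13.0 CPM in T1 to T4. All ablated mice but A4 lay below every control, and A4 lay above 8 of the 10 controls (log2 fold change −1.94 ± 0.97; adjusted p = 0.53, edgeR). Rrm2b, the subunit that resting cells use, was at 20.8, 15.1, 9.81, 26.0 and 25.5 CPM in the ablated mice and at 11.1 to 31.2 CPM in the controls (log2 fold change 0.08 ± 0.35). The shared large subunit Rrm1 was at 4.08, 12.3, 0.981, 34.7 and 11.5 CPM in the ablated mice and at 7.37 to 39.6 CPM in the controls, with a median of 24.2 (−0.93 ± 0.59). Without A4, Rrm2 (−4.15) and Rrm1 (−1.75) passed the call rule along with Lig1, so that 3 members were called, beside 1.29% of all genes. Limma-voom called Rrm2 with all mice (−3.68). A4 stood apart in Lig1, Rrm1 and Rrm2 but not in the mitosis list, where its sum of 23.8 CPM lay inside the ablated range.

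**Figure D3:**
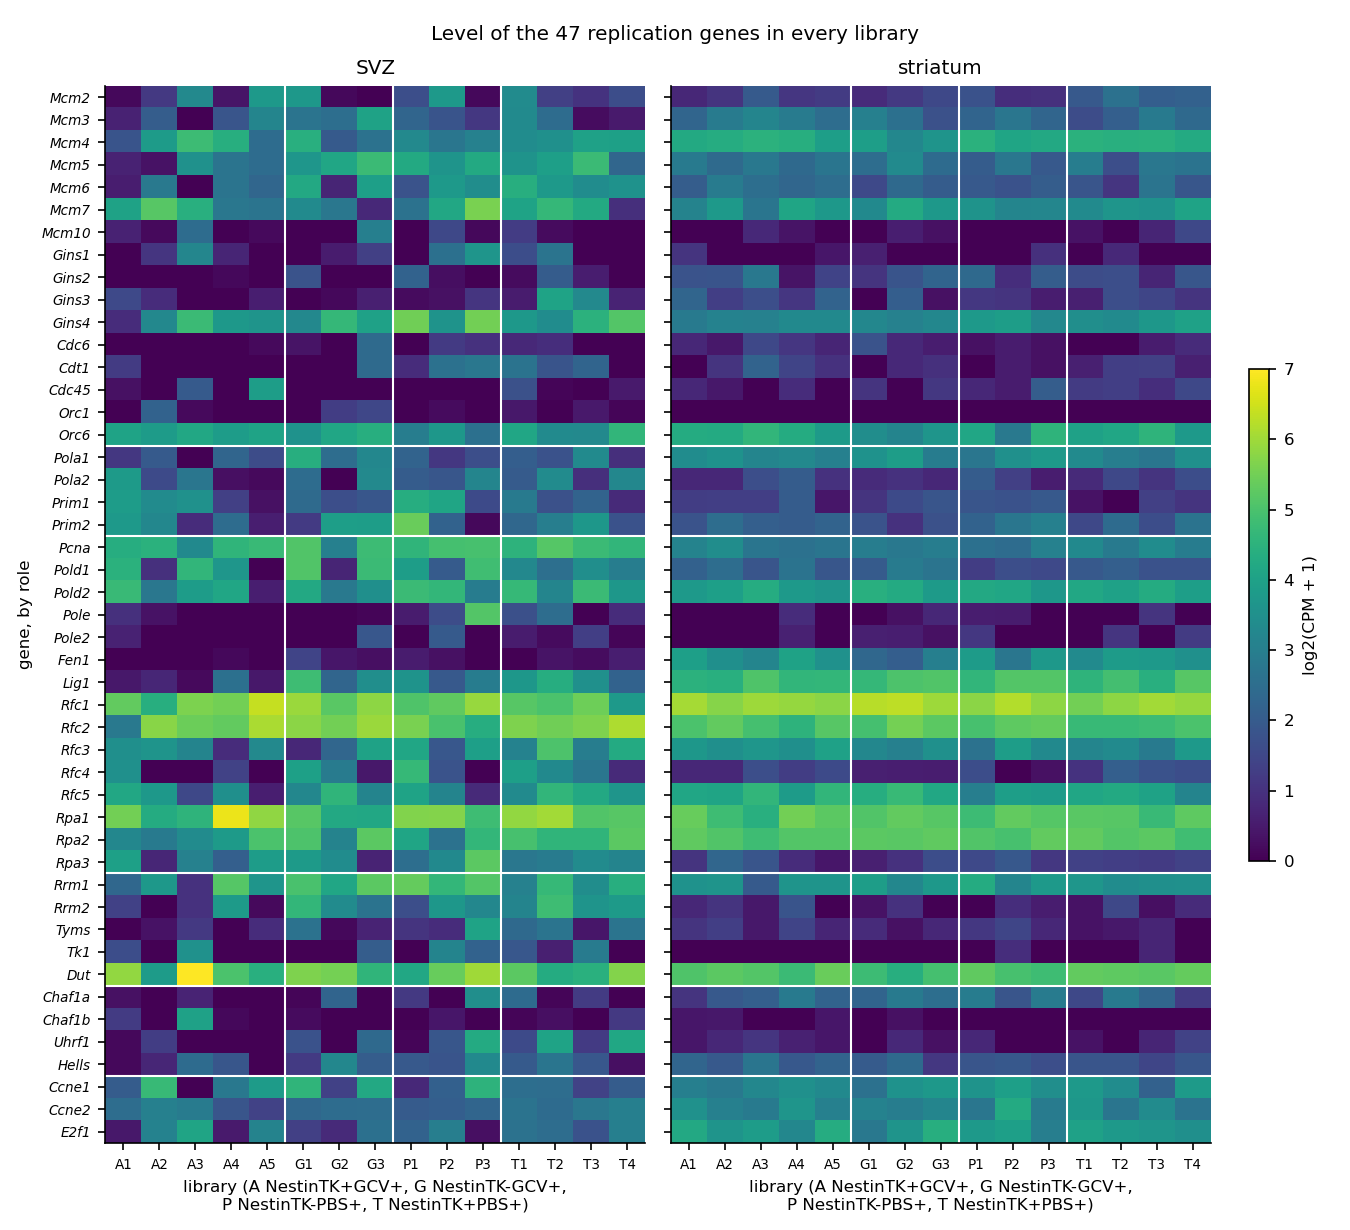
Level of the 47 genes (rows, by role) in every library (columns, by group) as log2(CPM + 1), SVZ left and striatum right; white lines part groups and roles. SVZ rows alternate between dark and bright cells within a group, and striatal rows are even, with steady bright rows for Rfc1, Rfc2, Rpa1, Rpa2, Lig1 and Dut and dark rows for Orc1, Tk1 and Chaf1b.

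The thymidylate genes were mixed. Tyms, which makes thymidylate, was at 0, 0.279, 1.23, 0 and 0.868 CPM in the ablated mice and at 0.110 to 15.5 CPM in the controls (log2 fold change −3.01 ± 1.37; adjusted p = 0.48, edgeR), with 5 controls above every ablated mouse. Mammalian Tk1, a different gene from the transgene, was at 10.7 CPM in A3, 2.16 CPM in A1 and 0 in the other 3 ablated mice, and at 0 to 7.90 CPM in the controls with 4 at 0 (0.06 ± 1.62). Its mitochondrial counterpart Tk2 was at 5.28 to 66.2 CPM in the ablated mice and 9.25 to 44.8 CPM in the controls (0.15 ± 0.48). Dut, which removes dUTP, reached 126.1 CPM in A3 and lay at 13.4 to 57.3 CPM in the other ablated mice, against 17.5 to 62.7 CPM in the controls (0.45 ± 0.43).

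Chromatin copying and entry into S phase complete the set. Uhrf1, which recruits the maintenance DNA methyltransferase to new DNA, was at 0.120, 1.39, 0, 0 and 0 CPM in A1 to A5. It was at 2.37, 0 and 4.25 CPM in G1 to G3, 0.0765, 2.65 and 18.4 CPM in P1 to P3, and 1.97, 15.7, 1.27 and 17.0 CPM in T1 to T4. The group means were 0.303 and 6.37 CPM, and G2, P1 and T3 lay within the ablated range (log2 fold change −4.38 ± 1.62; adjusted p = 0.38, edgeR). Without A2 the value was −7.32 and Uhrf1 passed the call rule, as it did without G2 (−4.54), without P1 (−4.53) and with DESeq2 (−4.40). Dnmt1, the methyltransferase itself, had 0.28 ± 0.26 and was present in every library. Chaf1a and Chaf1b, subunits of the histone chaperone CAF-1, pointed in opposite directions (−3.53 ± 1.90 and 3.94 ± 1.55); the value of Chaf1b came from A3 with 15.2 CPM, beside 1.32, 0.107, 0 and 0 CPM in A1, A4, A2 and A5 and 0 to 1.26 CPM in the controls. The cyclins Ccne1 and Ccne2 (0.21 ± 0.95 and −0.03 ± 0.62) and E2f1 (0.77 ± 0.88) had no call.

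Leaving out 1 mouse at a time moved the number of members called lower between 1 and 3. The share of all genes called lower ran from 0.799% to 1.42%. The member count was 2 without A2, A3, G2, P1 or T4 (Lig1 with Uhrf1 or Mcm5). It was 3 without A4 (beside 1.29% of all genes), and 1 in the other 9 cases. Without A1 that gene was Cdt1 in place of Lig1, whose log2 fold change was then −2.77. DESeq2 called 4 (Lig1, Mcm5, Tyms and Uhrf1), beside 2.5% of all genes called lower by it. A fit whose controls were the NestinTK-GCV+ mice alone called 0, beside 0.24% of all genes.

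The contrasts between single groups called few members. NestinTK+GCV+ against NestinTK+PBS+ called Lig1 (1 of 46, beside 1.19% of all genes), and against NestinTK-GCV+ also Lig1 (1 of 46, beside 0.94%). Ganciclovir in wild-type littermates (NestinTK-GCV+ against NestinTK-PBS+) called Pole lower (1 of 46, beside 1.06%), with a log2 fold change of −8.36 ± 2.73. These groups also differed in mouse number series, as given under the processing. Pole was at 0, 0 and 0.0758 CPM in G1 to G3 and at 0.459, 2.07 and 34.2 CPM in P1 to P3, and without P3 or without any 1 of the NestinTK-GCV+ mice no member was called. The transgene without ganciclovir called 0 of 46 by edgeR, DESeq2 and limma-voom (0.195% of all genes), and 0 had a nominal p-value under 0.05 by edgeR. The interaction of genotype and treatment called 0 of 46 by edgeR (0.837% of all genes), with Lig1 alone at a nominal p-value under 0.05, while DESeq2 called Lig1 and limma-voom Lig1 and Rrm2.

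Lists beyond the 47 genes were read the same way. Of 42 further replication and S phase genes 40 were tested in the SVZ, 27 were below 0 (median −0.39), 0 were called and 2 had a nominal p-value under 0.05 at the lower side by edgeR; Ccna2, the S phase cyclin, had −2.28 ± 1.31, and −6.02 with a call without A5. Of 15 genes for nucleotide supply and repair in resting cells, 5 were below 0 (median 0.08) and 0 were called by edgeR, with 1 at a nominal p-value under 0.05. In this list Polb, the base excision repair polymerase, had −0.28 ± 0.34 and Lig3, a DNA ligase, 0.82 ± 0.70.

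Which of these genes follow dividing cells was read from the 10 control mice alone, as the Spearman correlation of each gene with the mean log2 CPM of the 18 mitosis genes. Of the 46 genes 4 reached 0.6 (8.70%): Mcm4 (0.88), Gins2 (0.71), Lig1 (0.62) and Rrm2 (0.61), beside 4.23% of all genes. Rpa1 followed at 0.59, and the median over the members was 0.15. The clamp Pcna was at 0.45, Rfc1 at −0.25 and Dut at −0.36. None of the 15 genes for resting cells reached 0.6 (highest 0.44). Markers of other cell types did: Cldn5 (0.79), as 1 of 5 endothelial genes, and Ccdc153 (0.75) and Tmem212 (0.70), as 2 of 5 ependymal genes. Reaching 0.6 therefore does not mark genes of dividing cells alone. The choroid plexus, oligodendrocyte, oligodendrocyte precursor, microglia and spiny neuron lists had 0. The points share a library, its depth and its amplification, and the measure is coarse: only 4 of the 18 mitosis genes themselves reached 0.6 with a mean that contains them, and Mki67 and Top2a were at 0.02 and 0.07. Without P1, P2 and T1, 10 of 46 members reached 0.6 over 7 mice, beside 10.2% of all genes, among them these 4, Pcna and Mcm2. Mcm4, the closest follower in the controls, had the ablated mice at 2.52, 13.3, 26.6, 20.1 and 4.59 CPM against 2.97 to 20.3 CPM in the controls (log2 fold change 0.42 ± 0.56), while the mitosis list was lower in the same mice.

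**Figure D4:**
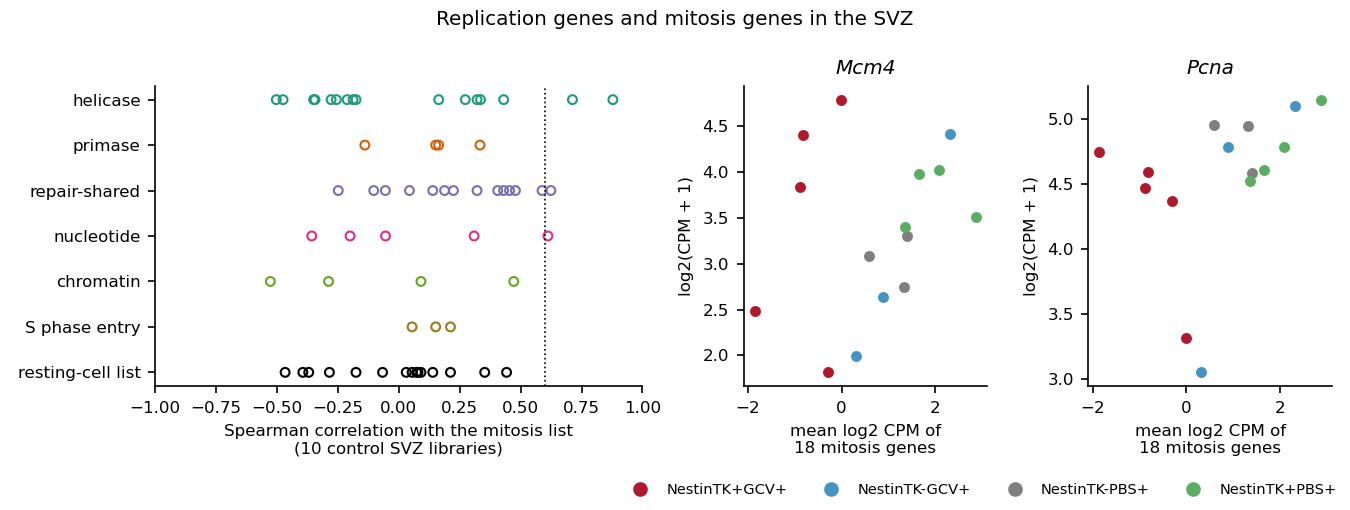
Left, Spearman correlation of each gene (circle) with the mean log2 CPM of the mitosis list over the 10 control SVZ libraries, by role, with the threshold of 0.6 dotted; middle and right, Mcm4 and Pcna as log2(CPM + 1) against that mean in all 15 SVZ libraries. Mcm4 rises with the mitosis list among the controls (0.88), and 3 ablated mice (A2, A3 and A4) have as much Mcm4 as the controls at a low mitosis mean.

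Per length, levels in control SVZ spanned a wide range. Mean CPM per kb of annotated exon was 16.7 for Gins4, 15.1 for Dut, 10.7 for Pcna and 6.75 to 7.44 for Rfc1 and Rfc2, against 0.164 for Cdc6, 0.243 for Gins2, 0.0812 for Cdc45 and 0.0435 for Chaf1b. Between control mice the median coefficient of variation was 111% over the helicase genes, 71.3% over the repair-shared genes and 51.3% over the list for resting cells. A count was present in all 15 SVZ libraries for 10 of 15 repair-shared genes and for 5 of 16 helicase genes. Fen1, the flap nuclease, had 1 count in the ablated SVZ libraries and 55 in the controls (ratio 0.0608, counting interval 0.00151 to 0.353), yet 13 to 59 counts in every striatal library; its exons share bases with Tmem258 and Gm10143 on the opposite strand. Whether reads were counted by strand is not given in the sources used here, and 16 of the 47 genes share exon bases with another gene, 14 of them with one on the opposite strand, so that these counts are uncertain to that extent.

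In the striatum, none of the 47 genes was called between the ablated mice and the pooled controls, at the lower (0.24% of all 15419 genes) or the higher side (0.454%), by edgeR, DESeq2 or limma-voom. At a nominal p-value under 0.05, edgeR and DESeq2 found 0 of 40 and limma-voom 1, beside 5.31% of all genes at the lower and 5.19% at the higher side by edgeR; none had an adjusted p under 0.05 (0.182% of all genes). The fold changes were small, with 18 of 40 below 0 and a median of 0.07 (0.00 over all genes), and ran from −1.62 for Pole2, the small subunit of polymerase epsilon, to 1.19 for Cdt1. The 47 genes summed to 424 to 439 CPM in the ablated mice and 407 to 458 CPM in the controls.

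Several repair-shared genes had close levels across the striatal libraries. The clamp loader subunit Rfc1 was at 65.2, 51.9, 61.8, 58.2 and 53.8 CPM in A1 to A5 and at 44.9 to 78.3 CPM in the controls (log2 fold change −0.09 ± 0.13), Rpa1 at 20.3 to 44.3 CPM against 25.7 to 38.8 CPM (−0.00 ± 0.16), and Rpa2 at 27.4 to 38.1 CPM against 28.0 to 39.1 CPM (−0.08 ± 0.12). Lig1, the called gene of the SVZ, was at 21.5, 20.3, 32.9, 23.3 and 23.9 CPM in the ablated mice. Its striatal controls were at 24.5, 32.0 and 33.1 CPM (G1 to G3), 23.4, 34.2 and 33.6 CPM (P1 to P3), and 22.6, 29.2, 20.2 and 35.2 CPM (T1 to T4). The Lig1 groups overlapped, with a log2 fold change of −0.24 ± 0.17 (adjusted p = 0.65, edgeR). Other repair-shared genes were less even: Pole and Pole2 were at 0 in 8 or more striatal libraries, and Fen1 and Pold1 differed between single groups. Between control mice, the median coefficient of variation was 30.0% over the repair-shared genes, 52.1% over the helicase genes and 23.2% over the list for resting cells. The tissues were made with different kits, so that levels were not tested between them.

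Many genes held to S phase were near the floor there. Orc1, the large subunit of the origin complex, had no count in any striatal library. Counting error alone still allows an expected total of about 3 counts over all 15 (95% upper bound). Tk1 had none in 13 libraries and 0.872 and 0.653 CPM in P2 and T3, while Tk2 was at 28.8 to 45.0 CPM throughout (0.08 ± 0.13). Rrm2 reached at most 2.55 CPM (A4), while Rrm2b was at 7.40 to 21.0 CPM (−0.12 ± 0.22) and Rrm1 at 2.96 to 18.8 CPM (−0.28 ± 0.26). Mcm10, Gins1, Chaf1b and Uhrf1, and also the repair-shared Pole, had at most 1.87 CPM in any library, and Mki67 at most 3.20 CPM. Yet not all helicase genes were low: Mcm4 was at 14.3 to 21.5 CPM in the ablated mice and 8.51 to 21.2 CPM in the controls (0.13 ± 0.20), and Orc6 and Mcm7 also had counts in every library, as did 9 of the 16 helicase genes and 12 of the 15 repair-shared genes. Of the mitosis genes in the striatum 13 of 16 tested were below 0 (median −0.52) and Cdc20 was called lower, with a summed level of 24.3 to 33.7 CPM in the ablated mice and 22.9 to 46.9 CPM in the controls. All 8 oligodendrocyte genes in the striatum were below 0 as well (median −0.61), 6 of them at a nominal p-value under 0.05, with a summed level of 2066 to 2732 CPM in the ablated mice and 2247 to 5838 CPM in the controls, and their part in the striatal values was not tested. T4 stood apart in the striatum, with 1431 CPM of choroid plexus genes (13.1 to 51.2 CPM elsewhere) and 3996 CPM of spiny neuron genes (7814 to 10702 CPM elsewhere); without it, still no member was called and the median was 0.11.

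The striatal contrasts between single groups called members where the NestinTK-GCV+ mice entered. NestinTK+GCV+ against NestinTK-GCV+ called Fen1 higher (1 of 40, beside 2.1% of all genes). Fen1 was at 14.4, 10.2, 8.14, 15.3 and 10.6 CPM in the ablated mice and at 4.08, 3.25 and 7.08 CPM in the NestinTK-GCV+ mice. Its log2 fold change was 1.28 ± 0.35 (adjusted p = 0.041, edgeR). In this contrast 1 of 40 members (2.5%) had an adjusted p under 0.05 by edgeR, beside 483 of all 15419 genes tested. Fen1 was at 13.3, 5.67 and 12.3 CPM in the NestinTK-PBS+ mice and at 9.18, 13.3, 12.8 and 10.4 CPM in the NestinTK+PBS+ mice, so that the NestinTK-GCV+ mice were the low group. Ganciclovir in wild-type littermates called 3 of 40 (beside 2.46%): Fen1 (−1.10 ± 0.37) and Prim2 (−1.49 ± 0.53) lower and Pold1 (1.41 ± 0.50) higher. These groups also differed in mouse number series, as given under the processing. Prim2, the regulatory primase subunit, was at 2.45, 1.00 and 2.36 CPM against 3.57, 5.67 and 7.26 CPM. Its raw counts of 9, 4 and 10 in G1 to G3 overlapped those of T1 to T4 (7, 12, 10 and 20). They were 7, 13, 9, 11 and 11 in A1 to A5. Pold1, the catalytic subunit of polymerase delta, was at 2.99, 6.51 and 5.43 CPM against 1.43, 2.18 and 1.94 CPM. Both rest on 4 to 30 counts per library. Limma-voom called none of the 3, and leaving out 1 mouse left between 0 and 2 called lower and 0 or 1 higher.

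The other striatal contrasts called none. NestinTK+GCV+ against NestinTK+PBS+ called 0 of 40 by edgeR, DESeq2 and limma-voom (1.35% of all genes by edgeR), with 2 members at a nominal p-value under 0.05 by edgeR. The transgene without ganciclovir called 0 of 40 by the same 3 tools (0.83%), with 2 at a nominal p-value under 0.05 by edgeR. The interaction called 0 of 40 by the same 3 tools (3.28%), with Fen1 (1.15 ± 0.47) and Prim2 (1.51 ± 0.69) at a nominal p-value under 0.05 by edgeR. The interaction shares the NestinTK-GCV+ libraries with the contrasts above. Mcm4 in the NestinTK-GCV+ mice was at 14.1, 8.51 and 11.3 CPM, against 16.4 to 21.2 CPM in the other controls, and had a log2 fold change of 0.72 ± 0.23 in the ablated mice against them, short of 2-fold.

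**Figure D5:**
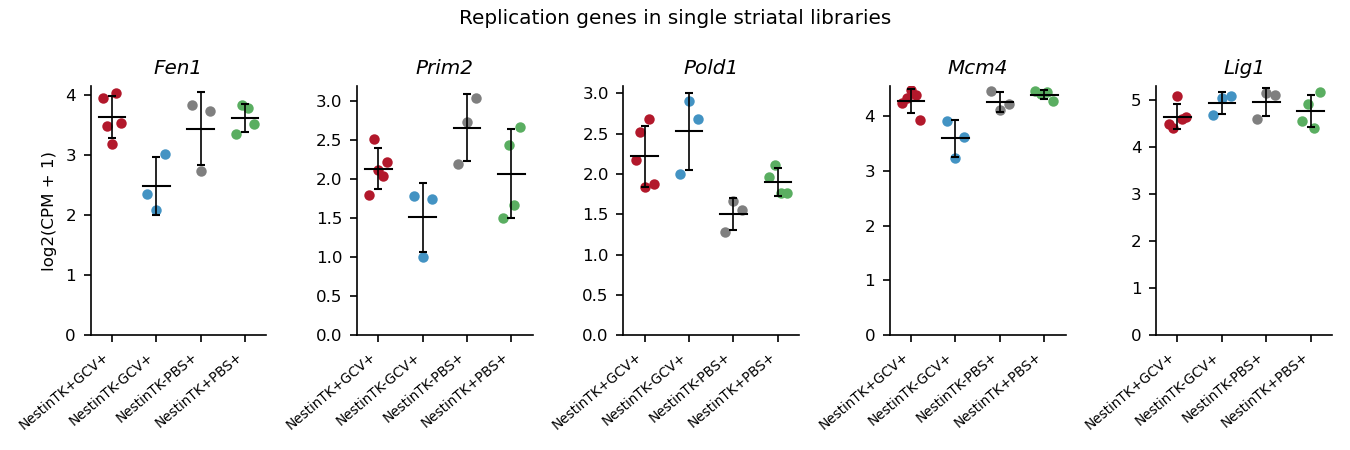
Level of 5 replication genes in each striatal library as log2(CPM + 1), by group (points, 1 mouse each; line and bar, mean ± SD; n = 5, 3, 3 and 4). Fen1 and Mcm4 are low in the NestinTK-GCV+ mice and Pold1 is low in the NestinTK-PBS+ mice. Prim2 is lower in the NestinTK-GCV+ than in the NestinTK-PBS+ mice but overlaps the NestinTK+PBS+ mice, and Lig1 overlaps in all groups.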

How the data were processed

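RNA was extracted from the SVZ and striatum of 15 mice. Per the labels and the paper's methods, the kits were SMART-Seq v4 for the SVZ (10 cycles) and QuantSeq 3′ FWD for the striatum, and single-end reads were trimmed with Trimmomatic (the labels and the methods give different versions), aligned to mm10 with STAR 2.5.3a and counted with featureCounts over Gencode M16; whether counting used strand is not given in the sources used here. The deposited values are raw counts per gene, 1 table per tissue, with 1 column per mouse, and each tissue was fitted apart. Groups were taken from the labels. The members and lists were chosen with earlier results of these data known, and genes are named by role, call or nominal p-value.

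Genes above 1 CPM in at least 3 libraries were kept, scaled by TMM and fitted with edgeR 4.0.16 (quasi-likelihood; R 4.3.3), 1 model of ablated against pooled controls and 1 of the 4 groups with 5 contrasts. A call took a change of 2-fold or more and an unadjusted p-value no higher than 0.01; adjusted p-values are Benjamini-Hochberg over all genes tested by edgeR. CPM is per 1000000 counts of tested genes, TMM-scaled, and log2 CPM used a prior count of 2. On simulated counts with a log2 change of 2, 119 of 188 changed genes (63.3%) were called in the SVZ and 179 of 195 (91.8%) in the striatum. The same rule also called 108 unchanged genes in the SVZ and 43 in the striatum. DESeq2 1.42.0, limma-voom 3.58.1, RLE factors, other filters, thinned counts, single control groups, a mouse number covariate and leaving out mice were tried as alternatives. Each sample title holds a first and a second number, read here as a library number and a mouse number, which the titles do not spell out. The first number lies within 1 to 10 in GCV libraries and starts from 11 in PBS libraries. Any order that it stands for and ganciclovir therefore cannot be told apart. The NestinTK-PBS+ mice had mouse numbers 3422, 3414 and 3430, and the ablated mice numbers from 4001 to 4055. The other control groups held numbers of both series. In contrasts that use the NestinTK-PBS+ mice, the groups therefore cannot be fully told apart from the mouse number series, whose meaning the labels do not give.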

Additional observations from a re-analysis of the deposited data

Results flagged for a closer look

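Within groups of 4 to 10 mice, 76 values of the genes followed were tested for 1 mouse far from the rest by Dixon's 95% criterion. Of these 19 were so marked, over 13 genes. The criterion assumes normal values, whereas these are untransformed CPM, many at 0, and the pooled controls contain the smaller control group. The marks therefore have no known chance rate and only list mice for a closer look. Among the ablated SVZ libraries, A4 stood high for Lig1 (5.02 CPM), Rrm2 (13.0 CPM) and Gins2 (0.107 CPM, a single count), A3 for Chaf1b (15.2 CPM) and Tk1 (10.7 CPM), A5 for Rpa2 (31.5 CPM) and Cdc6 (0.124 CPM, a single count), and A2 for Uhrf1 (1.39 CPM). Among the SVZ controls, T4 stood high for Chaf1b (1.26 CPM), G3 for Cdc6 (4.32 CPM), P3 for Rpa3 (37.0 CPM), T2 for Gins2 within NestinTK+PBS+ (3.12 CPM), and G2 low for Pcna (7.27 CPM).

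In the striatum, A3 stood high for Lig1 (32.9 CPM) and low for Rrm1 (2.96 CPM). Among the striatal controls, T4 stood high for Uhrf1 (1.60 CPM), G2 for Chaf1b (0.250 CPM), G1 for Cdc6 (2.45 CPM) and T3 for Tk1 (0.653 CPM). These last 4 values rest on few counts.

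The effect of ganciclovir differed between genotypes at a nominal p-value under 0.05 of edgeR's interaction term for 3 genes: SVZ Lig1 (log2 −4.09 ± 1.61; adjusted p = 0.94), striatal Prim2 (1.51 ± 0.69; adjusted p = 0.30) and striatal Fen1 (1.15 ± 0.47; adjusted p = 0.24). None passed the adjustment over all genes.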

How the results depend on the processing

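In the SVZ, 1 member was called lower. The count was 0 by adjusted p and 6 at a nominal p-value under 0.05 (6.09% of all genes). It was 2 with no filter on low counts (0.805% of all genes), 4 with DESeq2 (2.5%) and 2 with limma-voom (0.58%). With NestinTK-GCV+ as the only controls it was 0 (0.24%). Without the mice with Ttr over 1% it was 2 (0.701%), and leaving out 1 mouse gave 1 to 3 (0.799% to 1.42%). Members called higher were 2 at the nominal threshold and otherwise 0. For the contrasts between single groups that follow, the shares of all genes in each alternative are not given. Against NestinTK+PBS+ the lower count was 2 with DESeq2, 3 with limma-voom and 0 to 2 leaving out 1 mouse. Against NestinTK-GCV+ it was 2 with limma-voom and 0 to 2 leaving out 1 mouse, with 1 higher by DESeq2. Ganciclovir in wild-type mice gave 0 lower with limma-voom and 0 to 1 leaving out 1 mouse, and the interaction 1 with DESeq2, 2 with limma-voom and 0 to 2 leaving out 1 mouse. In the striatum, 1 member (Fen1) was called higher with NestinTK-GCV+ as the only controls, beside 2.11% of all genes. Leaving out 1 mouse gave 0 to 1 lower against NestinTK+PBS+, 1 to 2 higher against NestinTK-GCV+, 0 to 2 lower and 0 to 1 higher for ganciclovir in wild-type mice (0 and 0 with limma-voom), 0 to 1 higher for the transgene, and 0 to 2 higher for the interaction. Members that followed the mitosis list were 10 without the mice with Ttr over 1%. No called fold change reversed its sign. The log2 fold change of SVZ Lig1 ran from −4.76 to −2.72 leaving out 1 mouse (adjusted p 0.170 to 0.496, edgeR) and its call was lost without A1 and with NestinTK-GCV+ or NestinTK+PBS+ as the only controls. The SVZ median ran from −0.85 to −0.34 over all alternatives and the striatal one from −0.01 to 0.11. The cause of these moves was not tested. No paired analysis was possible because the replicate numbers follow accession order and pair no mice between groups. Low genes were sparsely counted: 6 to 14 of the 47 had no count in an ablated SVZ library and 1 to 11 in a control.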
